A study of Caenorhabditis elegans with 18 samples.

Results

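The genes of fatty acid activation and beta-oxidation were followed in whole first-stage larvae of Caenorhabditis elegans that were starved or briefly fed. They were taken from the deposited gene table by their WormBase names. All genes of the acs (acyl-CoA synthetase), cpt (carnitine palmitoyltransferase), acdh (acyl-CoA dehydrogenase), ech (enoyl-CoA hydratase) and acox (acyl-CoA oxidase) families were used except acdh-1, together with hacd-1, kat-1, acaa-2, maoc-1, dhs-28 and daf-22. This gave 63 genes of the 46904 in the table. The rule uses names alone, but it was set with earlier results of these data known. They were sorted into 22 activation genes, a mitochondrial list of 24, a peroxisomal list of 10 and 7 ech genes that were placed in neither compartment. The mitochondrial list held all cpt and acdh genes with ech-1.1, ech-1.2, ech-6, hacd-1, kat-1 and acaa-2. The peroxisomal list held all acox genes with maoc-1, dhs-28 and daf-22. The acdh genes, ech-1.1, ech-1.2 and ech-6 were placed by family and homology. Where the products act, and on which substrates, was not measured here.

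The study compared starved with fed larvae in the wild type and in mutants of the TORC1 nutrient pathway. Larvae of the wild-type strain N2, of raga-1(ok386) and of rsks-1(ok1255), all labelled as the N2 line and grown at 20 °C, gave 6 groups of 3 libraries. The gene raga-1 encodes a Rag GTPase that signals amino acid supply to TORC1, and rsks-1 encodes the S6 kinase that TORC1 phosphorylates. Eggs from bleached adults of every group were kept in M9 buffer for 24 h, and the fed groups were then placed on OP50 bacteria for 4 h. By these labelled times the fed larvae were 4 h older than the starved ones. Food and 4 h of age therefore cannot be told apart in the changes on feeding. Each mutation was present from the egg in every tissue and each mutant was represented by 1 allele. The labels give no culture for each replicate, so the p-values may reflect technical spread alone.

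Fatty acids are joined to coenzyme A by acyl-CoA synthetases before they can be oxidised. Long chains then enter mitochondria through the carnitine shuttle, where acyl-CoA dehydrogenases, hydratases, hydroxyacyl-CoA dehydrogenases and thiolases remove successive acetyl-CoA units that feed respiration. Peroxisomes run the same chemistry with acyl-CoA oxidases in the first step, act on very long chains, and in C. elegans also shorten the side chains of the ascaroside pheromones. In worms the nuclear receptor NHR-49 and its coactivator MDT-15 are known to raise several of these genes when food is absent.

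Libraries held between 9929323 and 18539402 counts. Levels are given as CPM, counts scaled to library size with TMM factors, and levels of different genes are compared only as CPM per kb of merged exon. A gene was called when the adjusted p of the edgeR quasi-likelihood test, adjusted by Benjamini-Hochberg over the 14073 genes tested, lay below 0.05, and this test stands behind every adjusted p given here. Errors of log2 changes are standard errors. No raga-1 read was counted in any raga-1 library, against at least 42.8 CPM in the other groups. The gene rsks-1 kept between 22.8 and 41.7 CPM in the rsks-1 libraries, against between 157 and 196 CPM elsewhere. When libraries were scaled by their totals without TMM, the median log2 change of all genes on feeding moved in N2 from -0.07 to -0.37, in raga-1 from -0.05 to -0.15 and in rsks-1 from -0.03 to -0.22. It moved the median difference of fed raga-1 from fed N2 from 0.01 to 0.33, of starved raga-1 from starved N2 from -0.01 to 0.11, and of the raga-1 and N2 responses from -0.03 to 0.17.

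Of the 63 genes, 56 had enough counts to be tested. The 7 others (acs-6, acs-10, acs-15, acs-18, acdh-2, acdh-5 and acdh-8) reached at most 11 counts in any library, and acs-15 had 0 counts in all 18. Together the 63 genes took 0.655 ± 0.00988% of all counts in starved N2 (SD, n = 3) and 0.297 ± 0.00227% in fed N2. The share was 0.619 ± 0.00418% in starved and 0.296 ± 0.00305% in fed raga-1, and 0.548 ± 0.00388% in starved and 0.309 ± 0.00136% in fed rsks-1. In all 3 genotypes the fed libraries lay below the starved ones, and the groups did not overlap. In these bulk libraries fewer cells of a type and less RNA per cell cannot be told apart.

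Feeding moved members of the pathway in both directions. In N2, 21 of the 56 tested members rose and 28 fell, which is 87.5% called against 73.9% of all genes tested, 36.5% higher and 37.4% lower. Their median log2 change was -0.18, against -0.07 over all genes tested. In raga-1, 11 rose and 39 fell, 89.3% against 62.4% of all genes (29.4% higher and 32.9% lower), with a median of -0.83 against -0.05. In rsks-1, 21 rose and 30 fell, 91.1% against 70.8% of all genes (35.7% higher and 35.2% lower), with a median of -0.30 against -0.03. Members moved to both sides in each genotype, and the number that rose was lowest in raga-1.

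Across genotypes, 22 of the 56 members fell in all 3 (39.3%, against 22.3% of all genes tested) and 11 rose in all 3 (19.6%, against 24.2%). The members that fell everywhere included acs-2, acs-11, cpt-1, hacd-1, acox-1.1, acox-3, maoc-1, dhs-28 and daf-22. Those that rose everywhere included acs-1, acs-5, acdh-3, acdh-9, acdh-13, ech-2, ech-5, ech-6, ech-7, kat-1 and acox-1.4. A further 7 (acox-1.2, acox-1.5, acs-4, acs-13, acs-20, cpt-4 and ech-1.1) rose in N2 and rsks-1 and fell in raga-1 (12.5%, against 1.55% of all genes tested). The gene acox-1.3 was called in none of the 3 genotypes, and the remaining 15 followed 9 other patterns.

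**Figure D1:**
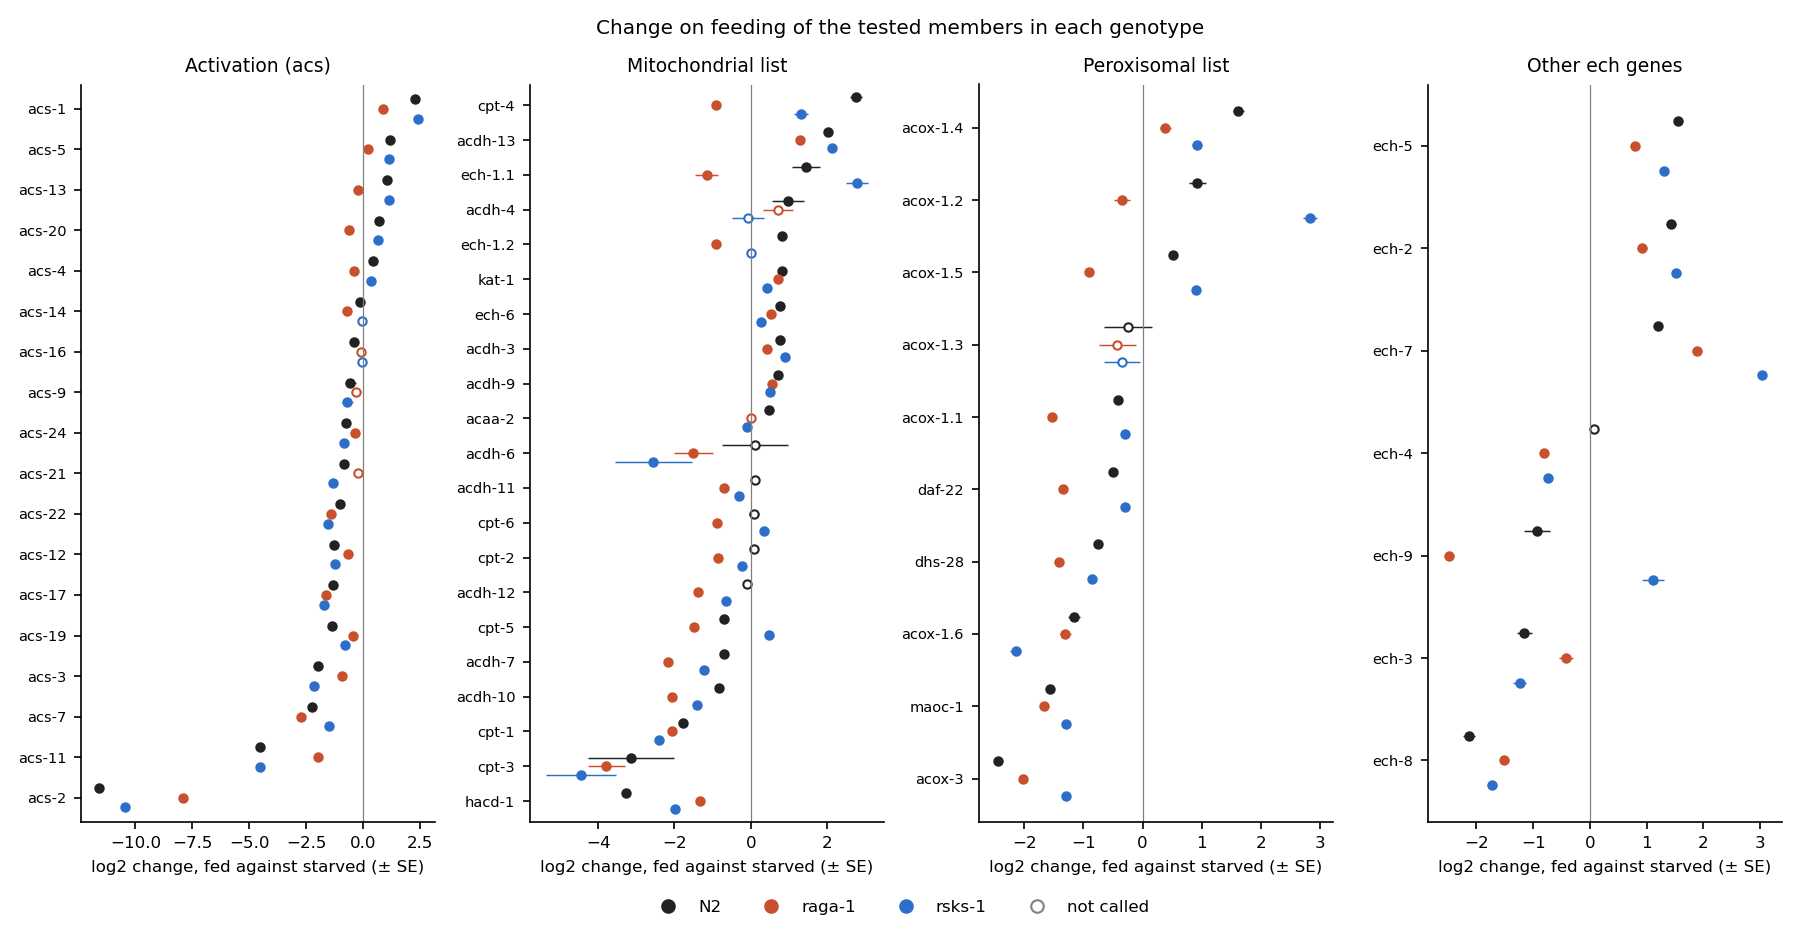
Log2 change on feeding (fed against starved, horizontal axis, bars show SE) of the 56 tested members in N2 (black), raga-1 (orange) and rsks-1 (blue), by list and ordered by the N2 change; open circles were not called at an adjusted p below 0.05. The horizontal axes differ between panels. The bars of acs-2 are too small, since few counts were left in its fed groups. The lowest value is acs-2 at -11.62 in N2, and for cpt-4, ech-1.1 and ech-1.2 the raga-1 point lies below 0 while the N2 point lies above it.

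Among the activation genes the largest change was that of acs-2 (WBGene00009221, V:15567394-15569897, WBcel235), an acyl-CoA synthetase of mitochondrial oxidation known in C. elegans to be raised by starvation through NHR-49. It read 1940.0, 1882 and 1896 CPM in starved N2 and 0.735, 0.457 and 0.589 CPM in fed N2. In raga-1 it read 251, 256 and 249.9 CPM starved and 1.19, 0.875 and 1.03 CPM fed, and in rsks-1 1106, 1100.0 and 1085 CPM starved and 0.309, 0.945 and 0.915 CPM fed. Every starved library lay far above every fed one, and the starved genotypes ranked N2, rsks-1 and raga-1 with no overlap. The log2 change on feeding was -11.62 in N2, -7.92 in raga-1 and -10.46 in rsks-1, with 16, 46 and 29 counts left in the fed groups. No standard error is given for these changes or their differences. One taken from the F statistic is too small at so few counts. The fall was smaller in raga-1 than in N2 (difference in log2 change 3.69, adjusted p = 8.46e-21). For rsks-1 against N2 the difference was 1.16 (adjusted p = 0.0328). It was no longer called without fed N2 library 2 or 3 or without fed rsks-1 library 2 or 3 (adjusted p from 0.0672 to 0.199). The log2 difference in level from starved N2 was -2.92 in starved raga-1 and -0.80 in starved rsks-1. From fed N2 it was 0.78 in fed raga-1 (adjusted p = 0.0772) and 0.36 in fed rsks-1 (adjusted p = 0.553), neither called. With library totals alone that of fed raga-1 was 1.09 and called. Of all counts on the 63 genes, acs-2 held 30.6 ± 0.369% in starved N2, 20.5 ± 0.245% in starved rsks-1 and 4.65 ± 0.0512% in starved raga-1, and at most 0.0427% in any fed library.

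The synthetase gene acs-11 (WBGene00018269, II:4742137-4745280) followed acs-2 in N2. It read 535, 543 and 539 CPM in starved and 21.1, 25.7 and 23.8 CPM in fed N2, 133, 127 and 126 CPM in starved and 31.3, 33.3 and 34.4 CPM in fed raga-1, and 339, 339.9 and 335 CPM in starved and 14.4, 14.2 and 15.6 CPM in fed rsks-1. Its log2 changes were -4.52 ± 0.05, -1.96 ± 0.05 and -4.52 ± 0.05, so that the raga-1 response was smaller than that of N2 by 2.56 ± 0.07 (adjusted p = 1.62e-64), while rsks-1 and N2 differed by 0.00 ± 0.09 (adjusted p = 0.987). The third abundant starvation gene of this family, acs-19, had means of 485 CPM in starved and 187 CPM in fed N2, 180.0 and 133 CPM in raga-1, and 334 and 191 CPM in rsks-1. In starved N2 these 3 genes led the 63 in level per length, with 915 ± 14.5, 324 ± 2.55 and 208 ± 5.70 CPM per kb (SD, n = 3), although acs-19 and the next gene, hacd-1 (200.4 ± 9.05), lay close together.

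The gene acs-7 (WBGene00007228, II:9292017-9294033) encodes a peroxisomal synthetase that in C. elegans activates ascaroside side chains. It read 96.5, 88.2 and 89.7 CPM in starved and 21.1, 17.4 and 19.5 CPM in fed N2, 107, 111 and 111 CPM in starved and 16.7, 14.7 and 18.6 CPM in fed raga-1, and 125, 117 and 122 CPM in starved and 41.5, 41.2 and 44.7 CPM in fed rsks-1. It fell in all 3 genotypes (log2 changes -2.24 ± 0.07, -2.72 ± 0.06 and -1.51 ± 0.06), and least in rsks-1, whose fed libraries lay above all other fed ones. The difference of the rsks-1 from the N2 response was 0.73 ± 0.09 (adjusted p = 5.79e-11).

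The gene acs-1 (WBGene00018488, V:6524989-6532089), whose product activates monomethyl branched-chain fatty acids needed for larval growth, went the other way. It read 35.4, 31.1 and 33.1 CPM in starved and 165, 161 and 166 CPM in fed N2, 41.6, 44.4 and 40.5 CPM in starved and 78.8, 79.6 and 76.3 CPM in fed raga-1, and 31.1, 32.97 and 32.8 CPM in starved and 178, 174 and 165 CPM in fed rsks-1. All fed libraries lay above all starved ones, and fed raga-1 lay below the other fed groups. The log2 changes were 2.31 ± 0.05, 0.89 ± 0.05 and 2.41 ± 0.05, and the raga-1 response was lower than that of N2 by 1.41 (SE 0.08, adjusted p = 5.62e-36). The difference between rsks-1 and N2 was 0.10 ± 0.08 (adjusted p = 0.365).

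The gene acs-20, needed for the cuticle barrier, read 11.1, 13.8 and 12.8 CPM in starved and 18.6, 22.7 and 19.9 CPM in fed N2, and 16.8, 13.3 and 14.4 CPM in starved and 8.69, 9.76 and 10.2 CPM in fed raga-1. In rsks-1 it read 11.4, 13.3 and 11.2 CPM starved and 20.6, 20.1 and 16.1 CPM fed. It rose in N2 (log2 change 0.69 ± 0.12) and rsks-1 (0.65 ± 0.11) and fell in raga-1 (-0.62 ± 0.12), and fed and starved libraries did not overlap in any genotype. The gene acs-17 read 158, 158 and 157 CPM in starved and 60.99, 63.1 and 65.3 CPM in fed N2, 167, 177 and 172 CPM in starved and 52.1, 57.6 and 59.9 CPM in fed raga-1, and 136, 135 and 138 CPM in starved and 41.8, 42.6 and 38.9 CPM in fed rsks-1. It fell in all 3 genotypes, with log2 changes of -1.32 ± 0.05, -1.60 ± 0.05 and -1.73 ± 0.05. Over the 18 tested activation genes, 5 rose and 13 fell in N2, where 36.5% of all genes tested were higher and 37.4% lower. For raga-1, 2 rose and 13 fell, against 29.4% higher and 32.9% lower over all genes. For rsks-1, 5 rose and 11 fell, against 35.7% higher and 35.2% lower. Their median log2 changes were -0.79, -0.53 and -0.83 in this order of genotypes. The medians over all genes were -0.069, -0.053 and -0.025. The summed level of all activation genes was 1859 ± 11.5 CPM per kb in starved and 541 ± 6.11 in fed N2, 806 ± 5.98 in starved and 429 ± 4.66 in fed raga-1, and 1301 ± 13 in starved and 539 ± 16.1 in fed rsks-1.

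In the carnitine shuttle, cpt-1 encodes the outer carnitine palmitoyltransferase, the step at which entry of long-chain acyl groups into mitochondria is controlled, and cpt-2 the inner one. The gene cpt-1 (WBGene00012907, II:12788244-12796452) read 182, 172 and 176 CPM in starved and 52.9, 49.9 and 51.6 CPM in fed N2. In raga-1 it read 494, 497 and 497 CPM starved and 121, 115 and 119.8 CPM fed, and in rsks-1 191, 192 and 192 CPM starved and 37.7, 34.2 and 37.1 CPM fed. Both raga-1 groups lay above the N2 and rsks-1 groups of the same state, without overlap. The gene fell on feeding in all 3 genotypes, by log2 changes of -1.78 ± 0.05 in N2, -2.06 ± 0.04 in raga-1 and -2.41 ± 0.04 in rsks-1. Both mutant responses were lower than that of N2. The difference was -0.63 ± 0.07 for rsks-1 (adjusted p = 4.97e-15) and -0.28 ± 0.06 for raga-1 (adjusted p = 1.54e-05). With library totals alone that of raga-1 was -0.08 and not called (adjusted p = 0.244).

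The gene cpt-2 (WBGene00011122, IV:11179645-11183008) did not follow cpt-1. It read 81.7, 87.01 and 90.3 CPM in starved and 89.1, 93.3 and 92.1 CPM in fed N2, where it was not called (log2 change 0.08 ± 0.05, adjusted p = 0.14; -0.22 with library totals alone). It read 129, 129.9 and 134 CPM in starved and 75.1, 70.8 and 71.9 CPM in fed raga-1, and 85.3, 89.7 and 84.2 CPM in starved and 75.7, 71.7 and 72.6 CPM in fed rsks-1. There it fell, with log2 changes of -0.85 ± 0.05 in raga-1 and -0.24 ± 0.05 in rsks-1. Starved and fed libraries overlapped in N2 and were apart in both mutants.

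Less abundant cpt genes differed in direction between genotypes. The gene cpt-4 (WBGene00019644, V:5023706-5027723) read 3.02, 1.86 and 2.93 CPM in starved and 18.2, 18.4 and 16.1 CPM in fed N2, 25.4, 30.2 and 26.2 CPM in starved and 14.2, 13.3 and 15.6 CPM in fed raga-1, and 2.48, 1.60 and 2.52 CPM in starved and 4.84, 5.60 and 5.65 CPM in fed rsks-1. It rose in N2 (2.76 ± 0.16) and rsks-1 (1.32 ± 0.19) and fell in raga-1 (-0.92 ± 0.10), and starved raga-1 libraries were the highest of all 18. The raga-1 response was below that of N2 by a log2 difference of -3.68 ± 0.19 (adjusted p = 8.49e-37). The gene cpt-5 (WBGene00008629, V:13873195-13875888) read 31.7, 25.5 and 27.2 CPM in starved and 17.1, 18.2 and 16.4 CPM in fed N2, 78.95, 72.6 and 81.9 CPM in starved and 26.4, 28.7 and 28.2 CPM in fed raga-1, and 46.6, 47.6 and 48.8 CPM in starved and 67.6, 62.3 and 71.1 CPM in fed rsks-1. It fell in N2 (-0.70 ± 0.09) and raga-1 (-1.49 ± 0.06) and rose in rsks-1 (0.49 ± 0.06), and the rsks-1 and N2 responses differed by 1.19 ± 0.11 (adjusted p = 1.89e-18). The gene cpt-3 had 15 counts in starved and 1 count in fed N2, a ratio of 10.7 (95% counting interval 1.65 to 451), 149 and 9 counts in raga-1, and 33 and 1 counts in rsks-1 (ratio 29.2, interval 4.88 to 1190.0). The intervals cover counting error only.

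**Figure D2:**
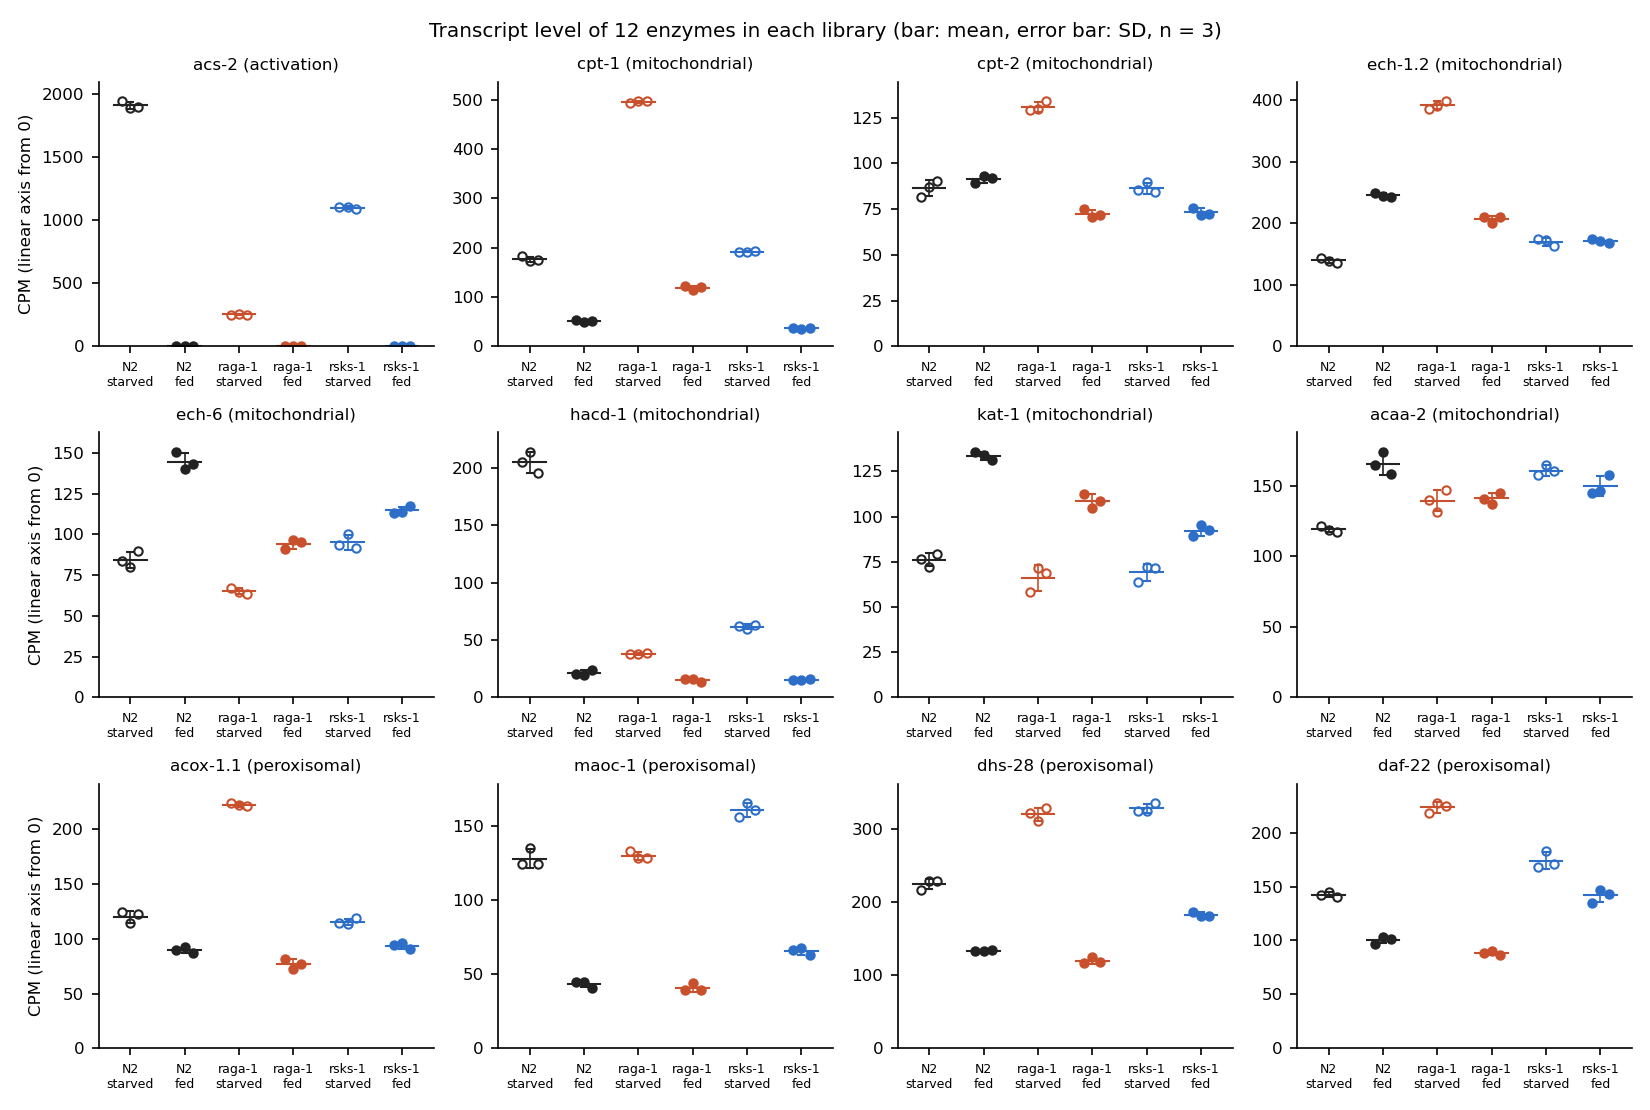
CPM (vertical axis, linear from 0) of 12 enzymes in each of the 18 libraries; open circles are starved and filled circles fed libraries, horizontal bars are group means and error bars the SD of 3 libraries. Each panel has its own scale. The acs-2 panel falls from 1906 to 0.593 CPM in N2, whereas kat-1 and ech-6 are higher in fed than in starved libraries of every genotype.

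Among the acyl-CoA dehydrogenases, which take the first oxidation step in mitochondria, 12 genes were listed and 9 tested. In N2 acdh-3, acdh-4, acdh-9 and acdh-13 rose, acdh-7 and acdh-10 fell, and acdh-6, acdh-11 and acdh-12 were not called. The gene acdh-13 (WBGene00001566, IV:8496485-8498823) read 20.97, 22.95 and 22.2 CPM in starved and 89.6, 92.9 and 88.5 CPM in fed N2, 21.3, 22.3 and 20.9 CPM in starved and 51.9, 47.2 and 57.2 CPM in fed raga-1, and 18.8, 20.4 and 19.8 CPM in starved and 85, 82.5 and 89.2 CPM in fed rsks-1. It rose in all 3 genotypes (2.03 ± 0.07, 1.28 ± 0.07 and 2.11 ± 0.07), and fed raga-1 libraries lay below those of the other fed groups. The gene acdh-7 (WBGene00020812, X:17215018-17217105), a homologue of mammalian medium-chain acyl-CoA dehydrogenase, read 63.3, 64.1 and 61.5 CPM in starved and 35.3, 42.4 and 38.4 CPM in fed N2, 215, 230.0 and 214 CPM in starved and 47.7, 48.3 and 49.8 CPM in fed raga-1, and 73.7, 72.8 and 74.6 CPM in starved and 31.1, 31.7 and 31.5 CPM in fed rsks-1. It fell in all 3 (-0.71 ± 0.06, -2.17 ± 0.05 and -1.23 ± 0.06), and starved raga-1 stood above every other group. Its neighbour acdh-10, which starts 114 bp away on the same strand (X:17213144-17214903), fell by 0.85, 2.06 and 1.40 on the log2 scale in the same order of genotypes. The mean of acdh-12 was 51.4 CPM in starved and 48.1 in fed N2, 117 in starved and 44.7 in fed raga-1, and 57.2 in starved and 35.9 in fed rsks-1, and it was called lower in both mutants. The gene acdh-6 had at most 60 counts in a group.

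The trifunctional protein carries the hydratase and dehydrogenase steps for long chains, and ech-1.2 (WBGene00020347) encodes a homologue of its alpha subunit. It read 144, 139 and 136 CPM in starved and 249.7, 244 and 243 CPM in fed N2, 386, 391 and 399 CPM in starved and 209.8, 201 and 210.0 CPM in fed raga-1, and 175, 172 and 163 CPM in starved and 175, 172 and 168 CPM in fed rsks-1. It rose in N2 (0.81 ± 0.04), fell in raga-1 (-0.92 ± 0.03) and was not called in rsks-1 (0.01 ± 0.04, adjusted p = 0.773; -0.19 and called with library totals alone). The differences from the N2 response were -1.74 ± 0.05 for raga-1 (adjusted p = 8.58e-63) and -0.80 ± 0.05 for rsks-1 (adjusted p = 2.08e-28). Its paralogue ech-1.1 was rare, with group means between 0.837 and 5.87 CPM.

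The short-chain hydratase gene ech-6 (WBGene00001155, III:9751552-9752883) rose in every genotype. It read 83.6, 79.7 and 89.8 CPM in starved and 150.4, 140.2 and 143 CPM in fed N2, 66.9, 64.8 and 63.2 CPM in starved and 90.9, 96.4 and 95.1 CPM in fed raga-1, and 93.5, 100.3 and 91.7 CPM in starved and 113, 114 and 117 CPM in fed rsks-1, with log2 changes of 0.78 ± 0.05, 0.54 ± 0.05 and 0.27 ± 0.05. Fed and starved libraries did not overlap in any genotype; with library totals alone the rsks-1 change was 0.07 and not called.

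The 3-hydroxyacyl-CoA dehydrogenase gene hacd-1 (WBGene00019978, V:1460369-1461613) was the mitochondrial member with the lowest log2 change in N2. It read 206, 214 and 195 CPM in starved and 20.1, 19.8 and 24.01 CPM in fed N2, 37.8, 37.4 and 39.02 CPM in starved and 15.9, 15.6 and 13.8 CPM in fed raga-1, and 62.5, 59.5 and 62.98 CPM in starved and 14.8, 15.1 and 16.2 CPM in fed rsks-1. All starved libraries lay above all fed ones, and starved N2 lay far above the starved mutants. The log2 changes were -3.27 ± 0.06, -1.34 ± 0.07 and -1.999 ± 0.07, and the fall was smaller than in N2 by 1.93 ± 0.10 in raga-1 (adjusted p = 1.59e-36) and 1.27 ± 0.10 in rsks-1 (adjusted p = 3.24e-21). In starved raga-1 hacd-1 was thus lower than in N2, as acs-2 and acs-11 were, whereas cpt-1 was higher.

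Thiolases close each turn of the spiral. The gene kat-1 (WBGene00002183, II:7073814-7075511) read 76.6, 72.3 and 79.3 CPM in starved and 136, 134 and 131 CPM in fed N2, 58.1, 71.7 and 68.9 CPM in starved and 112, 105 and 109 CPM in fed raga-1, and 63.6, 71.9 and 71.8 CPM in starved and 89.1, 95.2 and 92.5 CPM in fed rsks-1. It rose in all 3 genotypes (0.81 ± 0.05, 0.71 ± 0.05 and 0.41 ± 0.05), and all fed libraries lay above all starved ones. The gene acaa-2 (WBGene00009952, III:13344937-13346860) read 122, 119 and 118 CPM in starved and 165, 174 and 159 CPM in fed N2, 139.8, 132 and 147 CPM in starved and 141, 137 and 145 CPM in fed raga-1, and 158, 165 and 161 CPM in starved and 145, 146 and 158 CPM in fed rsks-1. It rose in N2 (0.48 ± 0.04), and in raga-1 its value was 0.01 ± 0.04 (adjusted p = 0.787). In rsks-1 the change of -0.10 ± 0.04 (adjusted p = 0.018) was small. Fed and starved rsks-1 libraries overlapped, and the call was lost without starved library 2 or fed library 1 or 2 (adjusted p from 0.0872 to 0.0945).

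In the peroxisomal pathway acyl-CoA oxidases take the first step, MAOC-1 the hydratase, DHS-28 the dehydrogenase and DAF-22 the thiolase step, and in C. elegans all these steps shorten ascaroside side chains. All 3 genes after the oxidases fell on feeding in all 3 genotypes. The gene maoc-1 (WBGene00017123, II:7196276-7197495) read 125, 136 and 124 CPM in starved and 44.8, 44.7 and 40.96 CPM in fed N2, 133, 128 and 128 CPM in starved and 39.2, 44.4 and 39.1 CPM in fed raga-1, and 156, 166 and 161 CPM in starved and 66.3, 67.6 and 62.9 CPM in fed rsks-1. Its log2 changes were -1.56 ± 0.05, -1.67 ± 0.05 and -1.30 ± 0.05, and starved and fed libraries were apart in each genotype. The gene dhs-28 (WBGene00000991, X:6818438-6820080) read 216, 229 and 229 CPM in starved and 134, 133 and 134 CPM in fed N2, 322, 311 and 328 CPM in starved and 117, 125 and 118 CPM in fed raga-1, and 324, 325 and 336 CPM in starved and 187, 181 and 181 CPM in fed rsks-1. It fell by 0.75, 1.42 and 0.85 on the log2 scale, and both starved mutants lay above starved N2. The gene daf-22 (WBGene00013284, II:12423518-12425694) read 142, 145 and 141 CPM in starved and 97.2, 103 and 101 CPM in fed N2, 218, 227 and 225 CPM in starved and 88.6, 89.8 and 86.7 CPM in fed raga-1, and 169, 183 and 171 CPM in starved and 135, 147 and 144 CPM in fed rsks-1. It fell by 0.50, 1.34 and 0.29, with no overlap of fed and starved libraries within a genotype. The gene maoc-1 lies 634 bp from the mitochondrial-list gene acdh-12 on the opposite strand, and in N2 acdh-12 had a log2 change of -0.10 ± 0.06 (adjusted p = 0.152).

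The 7 acyl-CoA oxidase genes were split. The gene acox-1.1 (WBGene00008564) read 124, 114 and 122 CPM in starved and 89.4, 92.9 and 86.99 CPM in fed N2, 224, 222 and 221 CPM in starved and 81.4, 72.7 and 77.4 CPM in fed raga-1, and 115, 113 and 119 CPM in starved and 94.4, 95.9 and 90.4 CPM in fed rsks-1. It fell in all 3 genotypes (-0.42 ± 0.05, -1.53 ± 0.04 and -0.30 ± 0.04), and starved raga-1 was the highest group. The gene acox-3 (WBGene00019060, IV:6245358-6248492) read 143, 147 and 144 CPM in starved and 26.5, 27.1 and 26.4 CPM in fed N2, 151, 160.1 and 166 CPM in starved and 39.9, 39.4 and 38.2 CPM in fed raga-1, and 202, 203 and 199.6 CPM in starved and 83.97, 85.3 and 77.5 CPM in fed rsks-1. It fell in all 3 (-2.44 ± 0.06, -2.02 ± 0.05 and -1.29 ± 0.04), and the fed groups ranked rsks-1, raga-1 and N2 with no overlap. The gene acox-1.6 (WBGene00010336, X:15834072-15838546) read 34.1, 29.6 and 35.4 CPM in starved and 14.8, 14.96 and 14.7 CPM in fed N2, 31.7, 28.3 and 26.3 CPM in starved and 11.4, 10.5 and 12.9 CPM in fed raga-1, and 54.99, 52.4 and 53.99 CPM in starved and 12.2, 12.02 and 12.4 CPM in fed rsks-1. It too fell in all 3 (-1.16 ± 0.10, -1.30 ± 0.09 and -2.14 ± 0.09).

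Other oxidase genes rose in N2. The gene acox-1.2 (WBGene00008565) read 7.24, 5.10 and 6.09 CPM in starved and 12.1, 10.7 and 11.9 CPM in fed N2, 8.25, 8.99 and 9.20 CPM in starved and 7.99, 6.06 and 6.82 CPM in fed raga-1, and 5.31, 5.36 and 5.72 CPM in starved and 40.3, 39.1 and 37.5 CPM in fed rsks-1. It rose in N2 (0.92 ± 0.14) and most in rsks-1 (2.83 ± 0.12), whose fed libraries stood above all others. Its value in raga-1 was -0.35 ± 0.13 (adjusted p = 0.0145), a call that was lost without starved library 3 or fed library 2 (adjusted p = 0.0591 and 0.11). The gene acox-1.4 (WBGene00008567) read 11.5, 13.3 and 14.9 CPM in starved and 37.7, 44.1 and 41.1 CPM in fed N2, 11.3, 12.7 and 13.6 CPM in starved and 15.9, 16.8 and 16.8 CPM in fed raga-1, and 24.2, 25.3 and 27.2 CPM in starved and 49.8, 49.1 and 46.6 CPM in fed rsks-1. It rose in all 3 (1.62 ± 0.10, 0.39 ± 0.10 and 0.92 ± 0.08). The genes acox-1.1 to acox-1.4 stand in 1 row on the same strand with gaps of 52, 343 and 34 bp, and in N2 and rsks-1 acox-1.1 fell while acox-1.2 and acox-1.4 rose. Among the members only acox-1.3 and acox-1.4 had fractional counts (in 17 libraries each). Their values are uncertain, and how reads were assigned there was not examined.

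The 7 ech genes left out of both compartments included ech-9 and ech-7, the members with the highest and the lowest log2 difference in level between starved raga-1 and starved N2. The gene ech-7 (WBGene00001156) read 58.2, 61.4 and 61.1 CPM in starved and 146, 133 and 138 CPM in fed N2, 5.32, 7.80 and 7.73 CPM in starved and 27.4, 25.8 and 24.7 CPM in fed raga-1, and 15.1, 13.7 and 14.4 CPM in starved and 111, 125 and 115 CPM in fed rsks-1. It rose in all 3 (1.21 ± 0.06, 1.88 ± 0.09 and 3.03 ± 0.07), and fed raga-1 stayed below starved N2. The gene ech-9 (WBGene00001158, IV:10233310-10235329) read 2.84, 4.64 and 3.74 CPM in starved and 1.89, 2.28 and 1.77 CPM in fed N2, 65.7, 59.9 and 63.3 CPM in starved and 11.3, 11.6 and 10.9 CPM in fed raga-1, and 1.97, 2.22 and 1.84 CPM in starved and 4.84, 4.79 and 3.51 CPM in fed rsks-1. It fell in N2 (-0.93 ± 0.23) and raga-1 (-2.48 ± 0.09) and rose in rsks-1 (1.11 ± 0.20), and both raga-1 groups lay above all others. Its neighbour ech-8 (WBGene00001157, IV:10236626-10239176), with a gap of 1296 bp, read 47.7, 43.3 and 42.2 CPM in starved and 7.87, 11.2 and 11.4 CPM in fed N2, 59.9, 52.2 and 52.7 CPM in starved and 16.2, 20.6 and 20.8 CPM in fed raga-1, and 48.4, 51.3 and 49.9 CPM in starved and 13.2, 17.4 and 14.2 CPM in fed rsks-1. It fell in all 3 (-2.13 ± 0.11, -1.51 ± 0.08 and -1.72 ± 0.09), so the neighbours parted in rsks-1.

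The gene ech-5 (WBGene00001154, IV:797023-799920) read 33.9, 30.2 and 28.4 CPM in starved and 90.3, 89.2 and 91.5 CPM in fed N2, 22.9, 30.4 and 24.5 CPM in starved and 42.1, 46.4 and 45.4 CPM in fed raga-1, and 25.95, 32.2 and 29.1 CPM in starved and 68.6, 77.4 and 70.6 CPM in fed rsks-1. It rose in all 3 (1.56 ± 0.07, 0.79 ± 0.07 and 1.31 ± 0.07). The gene ech-4 (WBGene00001153, II:10821031-10822391) read 34.3, 40.3 and 38.9 CPM in starved and 40.1, 37.5 and 41.4 CPM in fed N2, 69.3, 68.9 and 68.1 CPM in starved and 38.4, 38.6 and 40.8 CPM in fed raga-1, and 55.8, 53.5 and 53.99 CPM in starved and 29.98, 33.1 and 33.7 CPM in fed rsks-1. It fell in raga-1 (-0.81 ± 0.06) and rsks-1 (-0.74 ± 0.06), and its N2 value was 0.06 ± 0.07 (adjusted p = 0.418; -0.24 and called with library totals alone).

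The feeding responses of the mutants were then tested against that of N2. In raga-1 the response was higher than in N2 for 11 and lower for 34 of the 56 members. That was 80.4% called against 50.5% of all genes (21.8% higher and 28.8% lower). The median difference was -0.55, against -0.03 over all genes. With library totals alone the members split 13 and 29. The 5 highest were acs-2, acs-11, hacd-1, acs-3 and acs-19, which fell less in raga-1 than in N2, and the lowest were cpt-4, ech-1.1 and ech-1.2. In the mitochondrial list hacd-1 alone was called higher and 15 of 21 were called lower, with a median of -0.79, and in the peroxisomal list acox-3 was higher and 6 of 10 were lower, with a median of -0.75. In rsks-1 the response was higher for 14 and lower for 17 members. That was 55.4% called against 26.6% of all genes (10.8% higher and 15.8% lower). The median difference was -0.09 against -0.005, and the members split 20 and 16 with library totals alone. There 12 mitochondrial members were lower and 3 (cpt-5, ech-1.1 and hacd-1) higher, with a median of -0.51, while 5 peroxisomal members (acox-1.2, acox-1.5, acox-3, daf-22 and maoc-1) were higher and 2 (acox-1.4 and acox-1.6) lower, with a median of 0.16. The call for ech-8 (difference 0.41 ± 0.15, adjusted p = 0.0278) was lost without starved or fed N2 library 1, starved rsks-1 library 1 or fed rsks-1 library 2 (adjusted p from 0.0526 to 0.253), with the replicate block (0.0534) and with the DESeq2 Wald test (0.0518). These 2 comparisons share the N2 libraries. Between raga-1 and rsks-1, 12 responses were higher in raga-1 and 31 lower, 76.8% against 44.1% of all genes (18.8% higher and 25.3% lower). Feeding changes in opposite directions with a called difference were found in 8 members for raga-1 and N2 (14.3%, against 3.18% of all genes tested), in 3 for rsks-1 and N2 (5.36%, against 1.09%) and in 10 for raga-1 and rsks-1 (17.9%, against 3.50%).

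In starved larvae raga-1 and N2 already differed in most members. In raga-1, 30 were higher and 15 lower than in N2, 80.4% against 52.7% of all genes (27.0% higher and 25.7% lower), with a median log2 difference of 0.25 against -0.01. The mitochondrial list had 14 higher and 5 lower of 21, with a median of 1.19, of which all 6 cpt genes were higher. Among the higher members the differences were 4.06 ± 0.12 for ech-9, 3.39 ± 0.15 for cpt-4, 1.80 ± 0.05 for acdh-7, 1.71 ± 0.06 for acox-1.5, 1.49 ± 0.04 for cpt-1 and 1.49 ± 0.04 for ech-1.2. On the other side were ech-7 at -3.10 ± 0.08, acs-2 at -2.92 ± 0.03, hacd-1 at -2.42 ± 0.05 and acs-11 at -2.07 ± 0.04. The adjusted p of these genes lay between 2.81e-111 (acs-2) and 1.78e-45 (cpt-4), and in each the raga-1 and N2 libraries did not overlap. Small calls were lost for acs-17 (0.13) without raga-1 library 2 and for acox-3 (0.14) without raga-1 library 3. Those of kat-1 (-0.20) and ech-5 (-0.25) were lost without raga-1 library 1. That of ech-5 was also lost without N2 library 1 or raga-1 library 3. The call of acox-1.6 (-0.21) was lost without N2 library 1 or 3 or raga-1 library 3. With library totals alone kat-1, ech-5 and acox-1.6 were not called (adjusted p from 0.172 to 0.386). Under that scaling maoc-1 (0.14) and acs-20 (0.35) became called higher.

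Starved rsks-1 larvae differed from N2 in fewer members. In rsks-1, 20 were higher and 9 lower, 51.8% against 26.9% of all genes (15.1% higher and 11.9% lower), with a median log2 difference of 0.05 against -0.01. Of the 10 peroxisomal members 8 were higher and 0 lower, with a median of 0.45. Only acox-1.1 (adjusted p = 0.376) and acox-1.2 (adjusted p = 0.509) were not called. The 8 included acox-1.3 (0.86 ± 0.33, adjusted p = 0.037) and acox-1.4, whose values are uncertain because their counts were fractional. Among the higher members were acox-1.4 (0.95 ± 0.10), cpt-5 (0.77 ± 0.07) and acox-1.6 (0.70 ± 0.08). The lowest were ech-7 (-2.07 ± 0.07), hacd-1 (-1.73 ± 0.05), ech-9 (-0.90 ± 0.20) and acs-2 (-0.80 ± 0.03), and in each of these 4 the starved rsks-1 and N2 libraries did not overlap. The calls for cpt-1 (0.12) and ech-6 (0.17) were lost without starved N2 library 2, and that for ech-6 also without starved rsks-1 library 2 (adjusted p from 0.0553 to 0.0657).

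**Figure D3:**
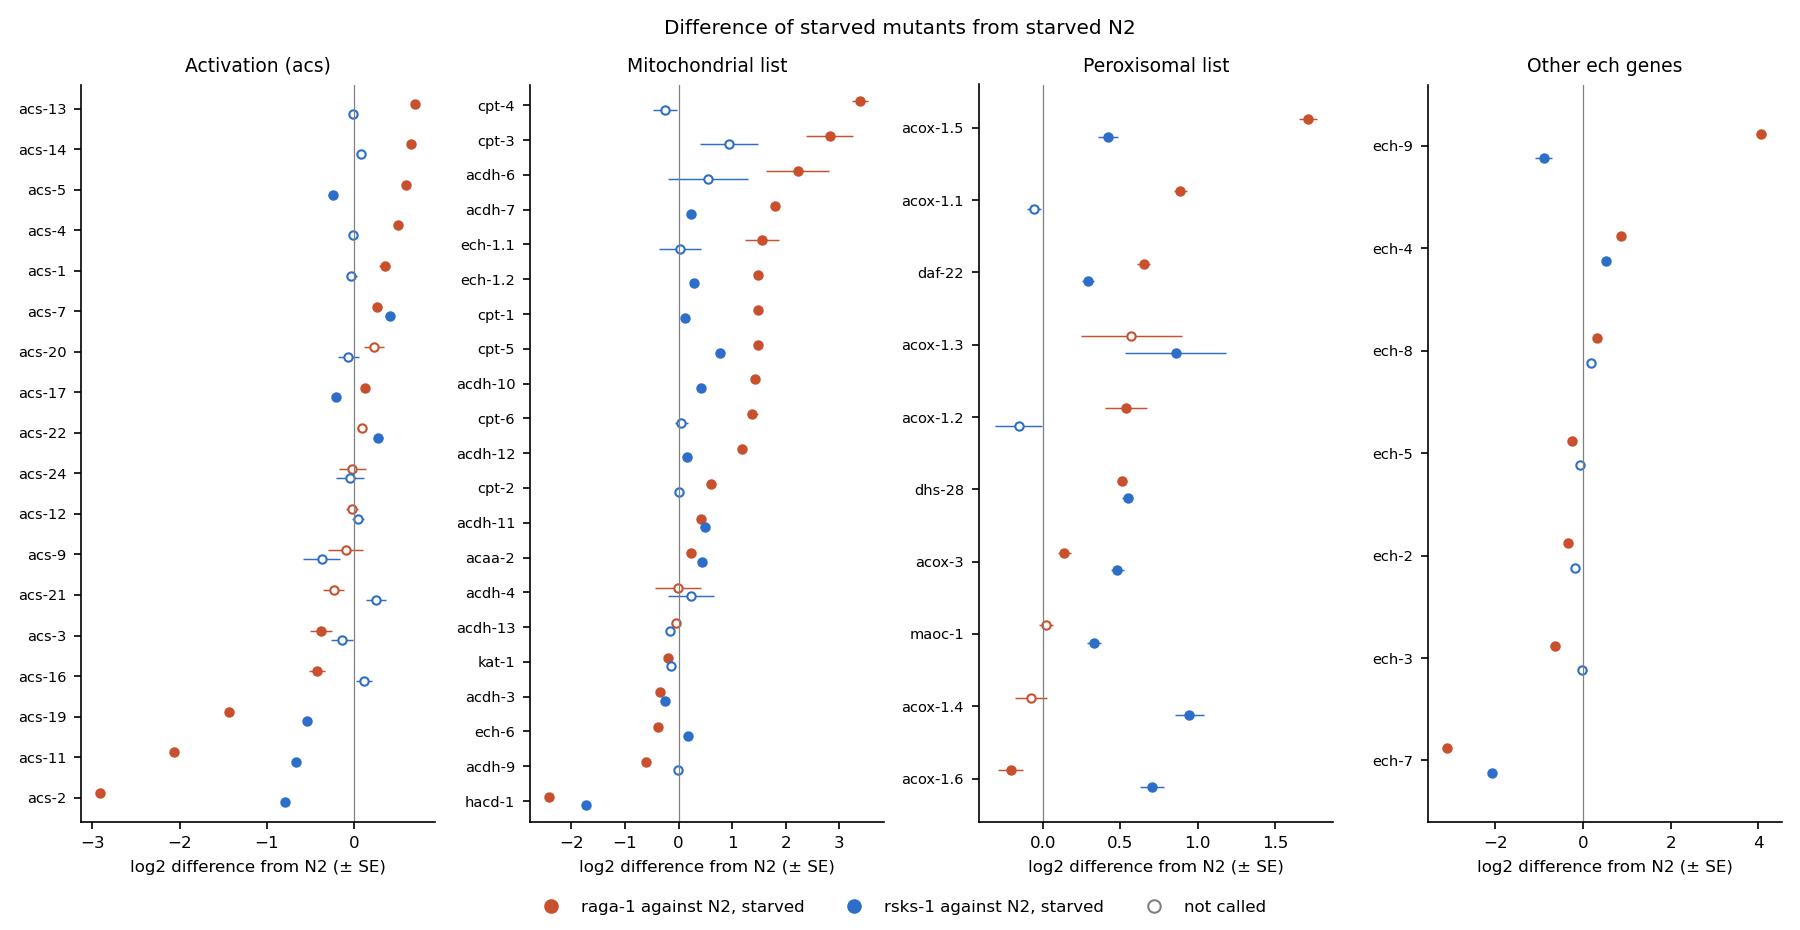
Log2 difference from starved N2 (horizontal axis, bars show SE) of the 56 tested members in starved raga-1 (orange) and starved rsks-1 (blue), by list and ordered by the raga-1 value; open circles were not called. The horizontal axes differ between panels and both mutants are compared with the same N2 libraries. In raga-1 most mitochondrial members lie to the right of 0, and in both mutants acs-2, acs-11, hacd-1 and ech-7 lie to the left.

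In fed larvae the raga-1 difference depended on the scaling. Against fed N2, 13 members were higher and 30 lower in raga-1, 76.8% against 63.3% of all genes (28.9% higher and 34.4% lower), whereas with library totals alone 23 were higher and 14 lower. Members far from 0 kept their side under both scalings. These were ech-9 (2.50 ± 0.18), cpt-1 (1.21 ± 0.05) and ech-8 (0.93 ± 0.12) above N2, and ech-7 (-2.42 ± 0.06), acox-1.4 (-1.31 ± 0.09) and acs-20 (-1.09 ± 0.12) below it. Of the small differences, those of ech-1.2, kat-1, acaa-2, acox-1.1, dhs-28, daf-22, cpt-4, acs-7 and acs-17 were called lower and changed sign with library totals. The calls of cpt-4, acs-7 and acs-17 were also lost without single libraries: cpt-4 without fed N2 or raga-1 library 1 or 2, acs-7 without fed N2 library 1 or 3 or fed raga-1 library 2, and acs-17 without fed N2 library 3 or fed raga-1 library 1. Fed rsks-1 had 16 members higher and 20 lower than fed N2, 64.3% against 40.0% of all genes (17.4% higher and 22.6% lower). Here the compartments parted: 7 of 10 peroxisomal members were higher and 1 lower, with a median of 0.55, and 3 of 21 mitochondrial members were higher and 11 lower, with a median of -0.32, against -0.0037 over all genes. The highest were cpt-5 (1.96 ± 0.08), acox-1.2 (1.75 ± 0.11) and acox-3 (1.63 ± 0.06), and the lowest of those called were cpt-4 (-1.70 ± 0.14), acs-11 (-0.67 ± 0.08) and acs-17 (-0.62 ± 0.06). The calls of acox-1.6 (-0.28 ± 0.11, lost without any 1 of the 6 libraries), acox-1.4 (0.24 ± 0.08, lost without fed N2 library 1) and acaa-2 (-0.15 ± 0.04, lost without fed N2 library 2) rested on single libraries.

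Mitochondrial and peroxisomal enzymes were next compared as summed levels per kb, as a description with no test. In N2 the mitochondrial sum was 879, 869.7 and 869 CPM per kb in the starved and 885, 889 and 857 in the fed libraries, which overlapped (fed over starved 1.005). The peroxisomal sum was 536, 553 and 545 in the starved and 312, 317 and 311 in the fed libraries (0.574). In raga-1 both sums were lower when fed, from 1208, 1229 and 1229 to 719, 709.8 and 721 for the mitochondrial list (0.586) and from 751, 749.8 and 761 to 279.9, 288 and 277 for the peroxisomal list (0.374). In rsks-1 they went from 808, 839.8 and 828 to 737, 736 and 758 (0.901) and from 707, 728 and 724 to 460.2, 467 and 451 (0.639). The peroxisomal sum was thus lower in fed libraries of each genotype, and the mitochondrial sum was lower in both mutants, without overlap. With library totals alone the log2 change of the mitochondrial sum was -0.29 in N2, -0.87 in raga-1 and -0.35 in rsks-1, so that the equal N2 sums depended on the scaling, while that of the peroxisomal sum was -1.101, -1.52 and -0.84.

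The ratio of mitochondrial to peroxisomal levels was higher in fed than in starved libraries in all 3 genotypes. It was 1.64, 1.57 and 1.60 in starved and 2.84, 2.81 and 2.76 in fed N2. It was 1.61, 1.64 and 1.62 in starved and 2.57, 2.46 and 2.60 in fed raga-1, and 1.14, 1.15 and 1.14 in starved and 1.60, 1.58 and 1.68 in fed rsks-1. Within a genotype the states did not overlap, and rsks-1 was the lowest genotype in each state. Against N2, the peroxisomal sum of rsks-1 was 1.32-fold when starved and 1.47-fold when fed, and the mitochondrial sum 0.946-fold and 0.848-fold. In starved raga-1 the mitochondrial sum was 1.40-fold and the peroxisomal sum 1.38-fold that of N2 (log2 0.49 and 0.47). With library totals alone these log2 folds were 0.61 and 0.59. This ratio depends on which genes are counted: with acs-2 added to the mitochondrial and acs-7 to the peroxisomal list its log2 change on feeding was -0.14 in N2, 0.58 in raga-1 and -0.15 in rsks-1.

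**Figure D4:**
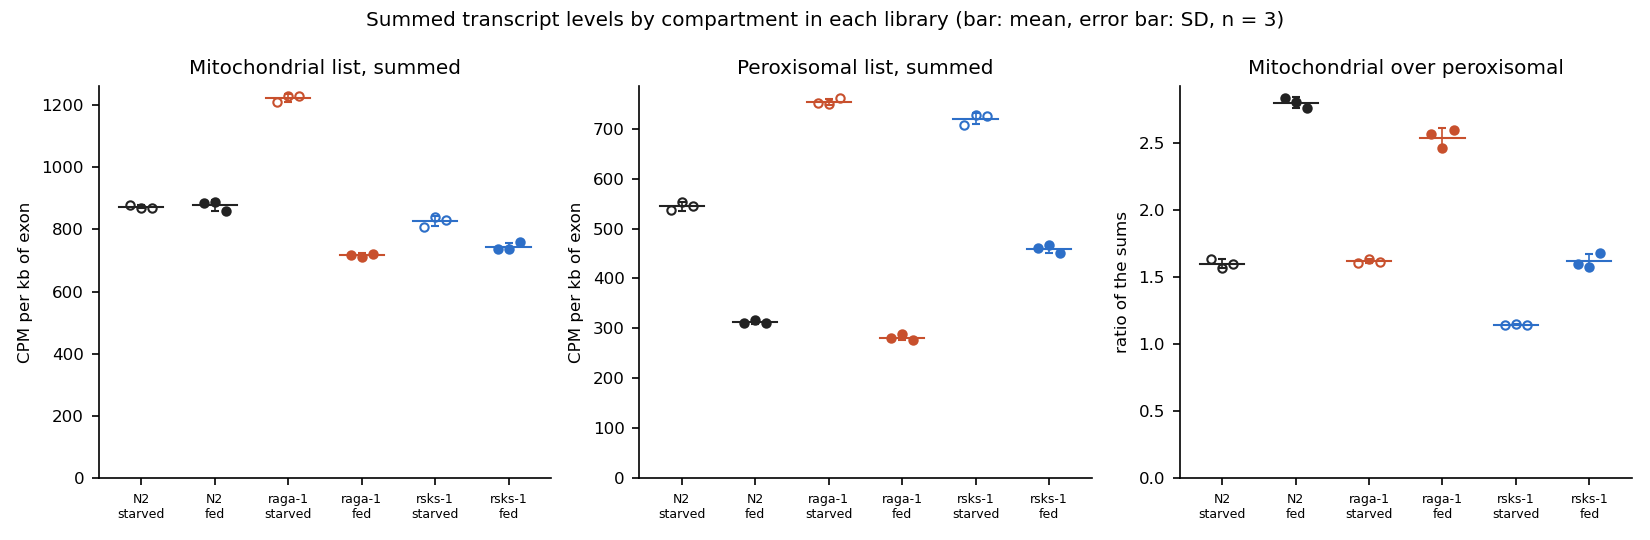
Summed CPM per kb of exon of the mitochondrial list (left) and the peroxisomal list (middle), and their ratio (right), in each of the 18 libraries; open circles are starved and filled circles fed libraries, bars are means and error bars the SD of 3 libraries, with axes from 0. Under TMM scaling the N2 means are 873 (starved) and 877 (fed) CPM per kb for the mitochondrial sum, a likeness lost with library totals alone, and 545 and 313 for the peroxisomal sum, and rsks-1 has the lowest ratio in each state (1.15 and 1.62).

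The genes behind the sums changed with food. The mitochondrial sum was led in starved N2 by hacd-1 (23%), acaa-2 (9.91%) and ech-6 (9.52%) and in fed N2 by ech-6 (16.2%), acaa-2 (13.7%) and kat-1 (11.5%). In starved raga-1 it was led by acdh-10 (16.5%), cpt-1 (14.5%) and acdh-7 (13.4%), and in starved rsks-1 by acaa-2 (14.2%), acdh-10 (12.1%) and ech-6 (11.3%). The peroxisomal sum was led in all 6 groups by dhs-28 (28.2 to 32.4%), with daf-22 and maoc-1 next. The mitochondrial sums of starved and fed N2, close in size, were led by different genes. Per length, the 3 highest members of fed N2 were ech-7 (179.6 ± 8.88), ech-6 (142 ± 5.23) and acaa-2 (120.3 ± 5.60 CPM per kb), which differed by more than their SDs, and those of starved raga-1 were dhs-28 (227 ± 6.30), acdh-10 (202 ± 2.52) and cpt-1 (177 ± 0.673).

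Genes around the pathway were read for context from lists that had also been drawn up with earlier results known. Their counts stand against shares over all genes of 36.5% higher and 37.4% lower in N2, 29.4% higher and 32.9% lower in raga-1, and 35.7% higher and 35.2% lower in rsks-1. Of 10 genes listed as regulators, among them nhr-49 and mdt-15, 9 fell on feeding in N2 and 0 rose. In this list 1 rose and 7 fell in raga-1, and 1 rose and 8 fell in rsks-1. Whether each of them acts on the members was not tested. The largest changes in N2 were those of mxl-3, a transcription factor of lipase genes (from 104 ± 3.82 to 18.3 ± 2.03 CPM, log2 change -2.50 ± 0.06), the AMP-activated kinase subunits aak-2 (-1.31 ± 0.05) and aak-1 (-1.28 ± 0.16), and mdt-15 (-1.02 ± 0.03). The gene nhr-49 fell by 0.54 in N2, 0.49 in raga-1 and 0.49 in rsks-1. Of 18 tested genes of lipid mobilisation and transfer 9 rose and 5 fell in N2, 6 rose and 7 fell in raga-1, and 9 rose and 7 fell in rsks-1. Among these lipid-binding proteins, lbp-1 went from 326 ± 20.9 to 17.03 ± 0.811 CPM (-4.26 ± 0.05), lbp-6 from 97.3 ± 7.89 to 521 ± 15.5 CPM (2.42 ± 0.04), and the acyl-CoA-binding acbp-3 from 8.78 ± 1.21 to 41.8 ± 2.35 CPM (2.24 ± 0.10). The gene lbp-8 rose by 3.20 ± 0.68 but stayed near 1.29 CPM when fed.

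Of 17 genes of peroxisome import and assembly 5 rose and 10 fell in N2, 2 rose and 12 fell in raga-1, and 4 rose and 7 fell in rsks-1. The peroxisomal transporter genes pmp-5 and pmp-1 rose in N2 (2.02 ± 0.09 and 1.36 ± 0.06), and the peroxisomal catalase gene ctl-2 (from 280.0 ± 3.37 to 77.9 ± 5.61 CPM, -1.84 ± 0.04) and the peroxin gene prx-2 (-1.43 ± 0.11) fell. Of 5 genes of fatty acid synthesis and its brake, 3 rose and 2 fell in N2, 1 rose and 3 fell in raga-1, and 3 rose and 2 fell in rsks-1. The fatty acid synthase gene fasn-1 went from 252 ± 20.4 to 769 ± 44.96 CPM in N2 (1.61 ± 0.04), from 238 ± 1.17 to 774 ± 29.4 in rsks-1 (1.70 ± 0.04), and from 458 ± 11.5 to 411 ± 10.9 in raga-1 (-0.15 ± 0.04). The malonyl-CoA decarboxylase gene mlcd-1, whose product removes the inhibitor of carnitine palmitoyltransferase, fell (-2.63 ± 0.09, -0.91 ± 0.08 and -2.65 ± 0.08). The ATP citrate lyase gene acly-1 rose in N2 (0.73 ± 0.05) and rsks-1 (0.59 ± 0.05) and fell in raga-1 (-0.35 ± 0.05). The acetyl-CoA carboxylase gene pod-2 fell in N2 (-0.44 ± 0.03) and rose in raga-1 (0.63 ± 0.03) and rsks-1 (0.50 ± 0.03). The gene let-721, whose product passes electrons from acyl-CoA dehydrogenases to ubiquinone, rose in N2 (0.30 ± 0.06) and fell in raga-1 (-0.91 ± 0.05) and rsks-1 (-0.31 ± 0.06), the directions also taken by ech-1.2 in N2 and raga-1.

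Tissue markers moved with the groups. None of the 32 markers of intestine, epidermis, body wall muscle, neurons and pharynx was at 0 in any group. The summed level of 8 intestine markers was 6639 to 6802 CPM in starved and 8819 to 8929 CPM in fed N2, 8483 to 8802 and 8717 to 8972 CPM in raga-1, and 7201 to 7414 and 6388 to 6500.0 CPM in rsks-1. These markers did not move together: in N2 act-5 (2.84) and pept-1 (1.57) were among the 3 that rose, ges-1 (-2.39), ifb-2 (-0.69), elt-7 (-0.35) and cpr-1 (-0.16) fell, and elt-2 was not called (0.13, log2 changes on feeding). The 6 body wall muscle markers summed to 9943 to 10060.0 CPM in starved and 8138 to 8365 CPM in fed N2, 13440.0 to 14300.0 and 11270.0 to 11850.0 CPM in raga-1, and 12380.0 to 12480.0 and 6900.0 to 7135 CPM in rsks-1. The 6 epidermis markers summed to 190.3 to 193 CPM in starved and 262 to 274 CPM in fed N2. They summed to 165 to 172 and 187 to 205 CPM in raga-1, and 195.7 to 196.4 and 306 to 308 CPM in rsks-1. The 7 neuron markers summed to 2008 to 2031 and 1148 to 1167 CPM in N2, 2034 to 2096 and 1590 to 1617 CPM in raga-1, and 2159 to 2174 and 1411 to 1432 CPM in rsks-1. The 5 pharynx markers summed to 3131 to 3235 and 1919 to 2006 CPM in N2, 2875 to 3073 and 2391 to 2551 CPM in raga-1, and 2504 to 2593 and 1206 to 1260 CPM in rsks-1. The part of these shifts in the values above was not tested.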

How the data were processed

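RNA-seq was analysed in 18 libraries, 3 in each of 6 groups, grouped by the genotype and feeding state in the labels. The deposited gene table holds expected counts per gene. STAR in 2-pass mode was the aligner per the labels' protocols, and RSEM and DESeq2 are named in the submitters' processing notes with no role or version. The labels name the build WBcel269, which could not be matched to the WBcel235 annotation used here for names, coordinates and merged exon lengths. Of 46904 gene IDs 44017 were named. Library totals ran from 9929323 to 18539402 counts and 0.962% of values were not whole. Among the members only acox-1.3 and acox-1.4 had fractional counts, and the source of these was not examined.

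Expected counts were rounded, filtered with filterByExpr (minimum count 10) to 14073 genes, scaled with TMM and fitted over all groups in edgeR 4.0.16 (R 4.3.3) by quasi-likelihood, with 12 residual degrees of freedom and Benjamini-Hochberg adjustment at 0.05. Feeding within a genotype, genotype within a state and the differences between feeding responses were tested, 10 comparisons in all. The fit was also run on simulated counts with known changes and the same spread for all genes. Its outcome is not given here, and it does not bear on the choice of scaling or on the spread at few counts. Standard errors were the log2 change divided by the square root of F. The members and lists were chosen with earlier results of these data known. Per-library values were given for 30 members, namely 12 core enzymes and those with the most extreme called changes at a mean of at least 10 CPM; other genes named were chosen after their values were seen. Alternatives were other scalings, no filter, DESeq2 1.42.0, isoform sums, the compared libraries only, a replicate block and leaving out each library. Same-numbered libraries did not deviate together. The labels do not say whether replicates came from separate cultures. Summaries used Python 3.11.15, pandas 2.3.3, NumPy 2.4.6 and SciPy 1.17.1, and figures matplotlib 3.10.9.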

Additional observations from a re-analysis of the deposited data

Results flagged for a closer look

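In 8 of 56 members (14.3%, against 3.18% of all genes tested) feeding moved raga-1 and N2 in opposite directions, and the difference was called by the interaction term in edgeR's quasi-likelihood test: acox-1.2 (log2 difference raga-1 minus N2 of -1.27), acox-1.5 (-1.42), acs-13 (-1.27), acs-20 (-1.32), acs-4 (-0.86), cpt-4 (-3.68), ech-1.1 (-2.61) and ech-1.2 (-1.74). All 8 rose in N2 and fell in raga-1, but the fall of acox-1.2 in raga-1 was no longer called without starved raga-1 library 3 (adjusted p = 0.0591), without fed library 2 (0.11) or with only the compared libraries (0.0598). Between rsks-1 and N2 the directions were opposite, with a called difference, in 3 members (5.36%, against 1.09% of all genes): acaa-2 (-0.58), cpt-5 (1.19) and ech-9 (2.04). The fall of acaa-2 in rsks-1 was no longer called without any of 3 single libraries, namely starved library 2 and fed libraries 1 and 2 (adjusted p from 0.0872 to 0.0945). Between raga-1 and rsks-1 feeding changes were opposite, with a called difference, in 10 members (17.9%, against 3.50% of all genes).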

How the results depend on the processing

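Counts of called members stayed within 1.5 times the reported ones in all 10 comparisons and all settings tried. Leaving out 1 library gave 47 to 49 called for feeding in N2, 48 to 51 in raga-1 and 49 to 51 in rsks-1. It gave 45 to 47, 28 to 31 and 43 to 45 for the differences between responses (raga-1 and N2, rsks-1 and N2, raga-1 and rsks-1), 42 to 45 and 40 to 42 for starved and fed raga-1 against N2, and 27 to 29 and 33 to 37 for rsks-1. The log2 ratio change of mitochondrial to peroxisomal sums ran from 0.793 to 0.824 in N2, 0.634 to 0.673 in raga-1 and 0.470 to 0.516 in rsks-1.

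That ratio change (N2, raga-1, rsks-1) was -0.1416, 0.5843 and -0.1541 with acs-2 and acs-7 added, 0.6982 and 0.941 (N2, raga-1) with the core lists, 0.6916 and 0.8533 (N2, raga-1) without acdh genes, 1.004, 0.7647 and 0.8295 with all ech genes placed, 0.5035, 0.4487 and 0.1334 as a mean of log2 levels, and 0.5002 and 0.3975 (raga-1, rsks-1) not per length. With library totals, a setting chosen for the sums after seeing the data, the log2 folds of fed over starved sums were -0.2941, -0.8707 and -0.3483 (mitochondrial) and -1.101, -1.521 and -0.8449 (peroxisomal). The log2 folds of fed raga-1 over fed N2 became 0.02914 (mitochondrial) and 0.1697 (peroxisomal). Library totals also reversed cpt-2 (-0.2198) and ech-4 (-0.2375) on feeding in N2, ech-1.2 in rsks-1 (-0.1853), and in fed raga-1 against N2 ech-1.2 (0.07473), kat-1 (0.02201), acaa-2 (0.08835), acox-1.1 (0.1017), maoc-1 (0.2307), dhs-28 (0.1638), daf-22 (0.137), cpt-4 (0.0291), acs-7 (0.1058), ech-4 (0.3061) and acs-17 (0.1641); the cause was not tested.

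With the replicate block the counts were 49, 49 and 51 for feeding in N2, raga-1 and rsks-1, 45, 31 and 43 for the differences between responses (for rsks-1 and N2 with ech-8 lost, adjusted p = 0.0534, and ech-5 gained, 0.0385), 45 and 43 for starved and fed raga-1, and 29 and 36 for rsks-1. Of 45 pairs of same-numbered libraries 0 had a correlation of deviations above 0.1 (-0.0456 to 0.0334). Such correlations cannot show whether same-numbered libraries were grown or prepared together.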
